A study of Homo sapiens with 6 samples.

Results

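The RNA of 10 genes of the nuclear lamina and envelope was followed in SUM159, a human breast cancer cell line of the triple-negative type, in libraries labelled DAPK3 knockout (KO) and libraries labelled control. The genes were the lamins LMNB1, LMNB2 and LMNA, the inner membrane and chromatin-tethering genes LBR, TMPO and BANF1, and the LINC complex genes SUN1, SUN2, SYNE1 and SYNE2. They were found by symbol among the 60675 rows of the deposited count table, and all 10 passed the filter on low counts, among 14613 genes tested. The genes were chosen by their role and by their CPM values (counts scaled to library size) in these same 6 libraries, in which LMNB1 followed the label. Their differences between the labels are therefore a description.

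There were 3 libraries labelled DAPK3 KO, from a single knockout line numbered 3, and 3 labelled control, in which DAPK3 is given as wild type. The medium given for both groups was Ham's F-12 holding hydrocortisone at 1 µg/mL, insulin at 5 µg/mL, HEPES at 10 mM and serum at 5%, and polyA RNA was sequenced. Separate cultures are not mentioned for the libraries, and p-values then measure only the spread between libraries, which may be technical. With 1 knockout line, an effect of losing DAPK3 and a property of that line cannot be told apart.

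The lamina is a mesh of lamin filaments under the inner nuclear membrane. B-type lamins, from LMNB1 and LMNB2, stay attached to the membrane through a farnesyl group, while A-type lamins, from LMNA, are also found inside the nucleus. LBR and the membrane-bound products of TMPO hold chromatin to the envelope, BANF1 bridges DNA and the LEM-domain proteins, and SUN proteins join the nesprins of SYNE1 and SYNE2 in a chain across both membranes to the cytoskeleton. In cultured human cells, LMNB1 is known to be expressed in dividing cells and to be lost in senescence.

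Each library held between 16312184 and 22970823 expected counts in all. VIM and CD44, markers of mesenchymal-type breast lines, stood at 1420 to 3580 and 304 to 526 CPM, ESR1 at no more than 0.478 CPM, and PGR at 0 in each of the 6 libraries. ERBB2 RNA was detected, at 52.2 to 97.7 CPM. The 5 blood markers summed to between 0.434 and 7.05 CPM, and the 4 endothelial markers to between 0.912 and 3.07 CPM with CDH5 at 0. The 4 neural markers summed to 8.66, 138 and 15.7 CPM in the libraries labelled KO R1, R2 and R3 and to 103, 9.42 and 82.5 CPM in those labelled control R1, R2 and R3, nearly all of it from MAP2.

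The targeted gene's RNA went against the label in each R2 library. DAPK3 stood at 13.1, 27.2 and 11.2 CPM in the libraries labelled KO R1, R2 and R3, against 26.2, 10.5 and 26.1 CPM in those labelled control R1, R2 and R3. The library labelled KO R2 thus had the highest DAPK3 RNA of the 6 and the library labelled control R2 the lowest. The first principal component of all tested genes, with 74.7% of the variance, set the libraries labelled KO R1, KO R3 and control R2 (56.2 to 56.6) apart from those labelled KO R2, control R1 and control R3 (−59.4 to −52.9). A knockout allele may keep its transcript, so this level does not give a genotype. Whether the labels of the R2 libraries were exchanged was not tested, and no library was moved. Directions below are those of the labels.

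The promoters of 3 members are printed here. LMNB1 is the member that separated the labels most, and LMNB2 is its nearest relative in the set. TMPO carries a pair of CCAAT matches, as does SUN2, whose windows are not printed. The windows run from 250 bases before to 50 bases after a RefSeq transcription start on GRCh38.p14, in the direction of the gene. LMNB1 has 2 windows (chr5:126776373-126776672 and chr5:126776886-126777185, plus strand). LMNB2 lies on the minus strand (chr19:2456910-2457209) and TMPO on the plus strand (chr12:98515323-98515622). Capitals mark matches to 3 motifs known from cell cycle promoters: E2F (TTTCCCGC, TTTGGCGC, TTTCGCGC or TTTGCCGC), CHR (TTTGAA) and CCAAT.
LMNB1 upstream window: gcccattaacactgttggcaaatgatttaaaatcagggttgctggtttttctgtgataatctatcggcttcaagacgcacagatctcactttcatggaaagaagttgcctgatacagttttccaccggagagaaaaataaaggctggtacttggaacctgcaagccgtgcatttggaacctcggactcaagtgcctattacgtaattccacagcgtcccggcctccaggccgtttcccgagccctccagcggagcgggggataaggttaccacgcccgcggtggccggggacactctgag
LMNB1 downstream window: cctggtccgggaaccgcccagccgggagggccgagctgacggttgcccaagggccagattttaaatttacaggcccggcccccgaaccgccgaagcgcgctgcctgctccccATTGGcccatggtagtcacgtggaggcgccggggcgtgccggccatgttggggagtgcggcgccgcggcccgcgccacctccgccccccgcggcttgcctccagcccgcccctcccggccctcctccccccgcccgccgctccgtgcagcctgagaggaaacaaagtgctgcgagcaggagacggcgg
LMNB2: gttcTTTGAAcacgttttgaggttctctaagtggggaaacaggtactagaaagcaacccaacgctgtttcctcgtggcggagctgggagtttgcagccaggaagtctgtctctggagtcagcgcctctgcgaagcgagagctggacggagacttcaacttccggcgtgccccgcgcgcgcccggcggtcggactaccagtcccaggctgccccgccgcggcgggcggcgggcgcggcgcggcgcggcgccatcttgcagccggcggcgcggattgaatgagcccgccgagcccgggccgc
TMPO: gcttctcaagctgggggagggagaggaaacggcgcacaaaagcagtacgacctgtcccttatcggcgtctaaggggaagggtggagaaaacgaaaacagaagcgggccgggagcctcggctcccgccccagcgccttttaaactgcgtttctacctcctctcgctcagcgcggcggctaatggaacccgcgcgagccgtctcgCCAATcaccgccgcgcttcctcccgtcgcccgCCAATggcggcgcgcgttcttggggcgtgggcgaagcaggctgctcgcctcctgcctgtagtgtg

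Both strands were searched, and no letters were shared between hits of different motifs. The upstream LMNB1 window held none of the motifs, and the downstream one held CCAAT on the other strand, starting at position -138 from the start site. TMPO held CCAAT 2 times, at -47 and -15, and LMNB2 held CHR at -246. RefSeq windows were found for 9 of the 10 members, 20 in all. An E2F match was found in windows of 2 members (LMNA at -23 and SYNE2 at -38), CHR in 2 (LMNB2 and SUN2) and CCAAT in 6. Counted by window, E2F was in 2 of the 20, CHR in 2 and CCAAT in 7. Of 35116 promoter windows of the same length, 3.31% held E2F, 15.2% CHR and 34.6% CCAAT. A match is a string of letters, and absence of a match says nothing about binding.

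LMNB1 (ENSG00000113368, GRCh38 chromosome 5, 126776623 to 126837020, plus strand), encoding lamin B1, was lower in every library labelled KO. It stood at 34.0, 43.4 and 50.3 CPM in the libraries labelled KO R1, R2 and R3, against 107, 77.6 and 91.1 CPM in those labelled control R1, R2 and R3. The groups did not overlap: the library labelled KO R2, with the highest DAPK3 RNA, was among the low ones for LMNB1, and the library labelled control R2, with the lowest DAPK3 RNA, was the lowest of the control libraries but above every KO one. The mean was 42.5 ± 8.16 CPM in KO and 92.1 ± 15 CPM in control (SD, n = 3 each), a log2 fold change of −1.11 (SE 0.19). In bulk RNA, fewer cells with a transcript and less transcript per cell cannot be told apart.

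LMNA (chromosome 1, 156082573 to 156140089), encoding lamins A and C, also had no overlap between the labels, but by a narrow margin. It stood at 250, 323 and 325 CPM in the libraries labelled KO R1, R2 and R3, against 349, 347 and 340 CPM in those labelled control R1, R2 and R3. The highest KO library was at 325 CPM and the lowest control library at 340 CPM, with KO R1 lowest of all, and the log2 fold change was −0.21 (SE 0.13). Groups without overlap and with KO lower were found for 2 of the 10 members, and for 6.86% of all tested genes. KO was higher without overlap for 0 members and for 6.97% of all genes.

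LMNB2 (chromosome 19, 2427638 to 2456996), encoding lamin B2, overlapped between the labels. It stood at 133, 220 and 166 CPM in the libraries labelled KO R1, R2 and R3, against 225, 176 and 224 CPM in those labelled control R1, R2 and R3. The library labelled KO R2 stood with control R1 and R3, and control R2 stood with KO R3. The log2 fold change was −0.27 (SE 0.21). The LMNB2 locus overlaps TIMM13 on the same strand, so reads from the shared stretch are divided by estimate.

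Because ratios within a library do not depend on how libraries are scaled, the 3 lamins were also set against each other. Of all counts assigned to LMNA, LMNB1 and LMNB2, LMNB1 held 8.17% (7.58 to 8.79), 7.39% (6.88 to 7.94) and 9.29% (8.79 to 9.81) in the libraries labelled KO R1, R2 and R3. It held 15.8% (15.2 to 16.4), 12.9% (12.3 to 13.5) and 13.9% (13.3 to 14.5) in those labelled control R1, R2 and R3. The ranges are 95% Wilson intervals, which cover counting error only, and those of the KO libraries stayed below those of the control libraries. LMNB2 held 31.8%, 37.5% and 30.6% in the KO libraries and 33%, 29.3% and 34.1% in the control libraries, and its groups overlapped. The CPM ratio of LMNB1 to LMNB2 was 0.257, 0.197 and 0.303 in KO libraries R1 to R3, against 0.477, 0.44 and 0.407 in control libraries R1 to R3.

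**Figure D1:**
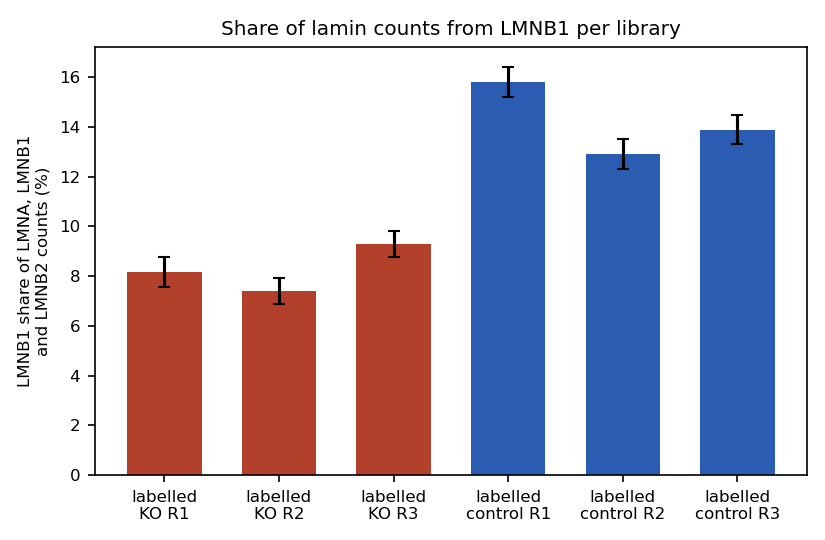
Share of LMNA, LMNB1 and LMNB2 expected counts that came from LMNB1, in percent, 1 bar per library with its 95% Wilson interval. The libraries labelled KO sit between 7.39% and 9.29% and those labelled control between 12.9% and 15.8%.

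LBR (chromosome 1, 225401502 to 225428925), the lamin B receptor, which also has sterol reductase activity, overlapped through both R2 libraries. It stood at 59.6, 75.6 and 64.2 CPM in the libraries labelled KO R1, R2 and R3, against 111, 67.9 and 114 CPM in those labelled control R1, R2 and R3. Control R1 and R3 stood apart above the other 4 libraries, which lay within 59.6 to 75.6 CPM. The log2 fold change was −0.56 (SE 0.22).

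TMPO (chromosome 12, 98515512 to 98550379), which encodes the lamina-associated polypeptide 2 proteins, stood at 108, 162 and 146 CPM in the libraries labelled KO R1, R2 and R3, against 210, 159 and 176 CPM in those labelled control R1, R2 and R3. KO R2 and control R2 nearly coincided, and the log2 fold change was −0.39 (SE 0.19). The antisense gene TMPO-AS1, which overlaps it, had 28.72 to 72.31 expected counts per library, against 2024.37 to 4292.2 for TMPO, and the 7 pseudogene copies named after TMPO and BANF1 had at most 4 each.

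BANF1 (chromosome 11, 66002079 to 66004149), encoding the barrier-to-autointegration factor, varied least of the members. It stood at 160, 150 and 172 CPM in the libraries labelled KO R1, R2 and R3, against 169, 189 and 148 CPM in those labelled control R1, R2 and R3. The highest library was 1.28-fold above the lowest, compared with 3.16-fold for LMNB1, and the log2 fold change was −0.07 (SE 0.13). On the strand opposite to BANF1 lies EIF1AD, with 461 to 767 expected counts, and the strand setting of the counting is not given in the sources used here.

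**Figure D2:**
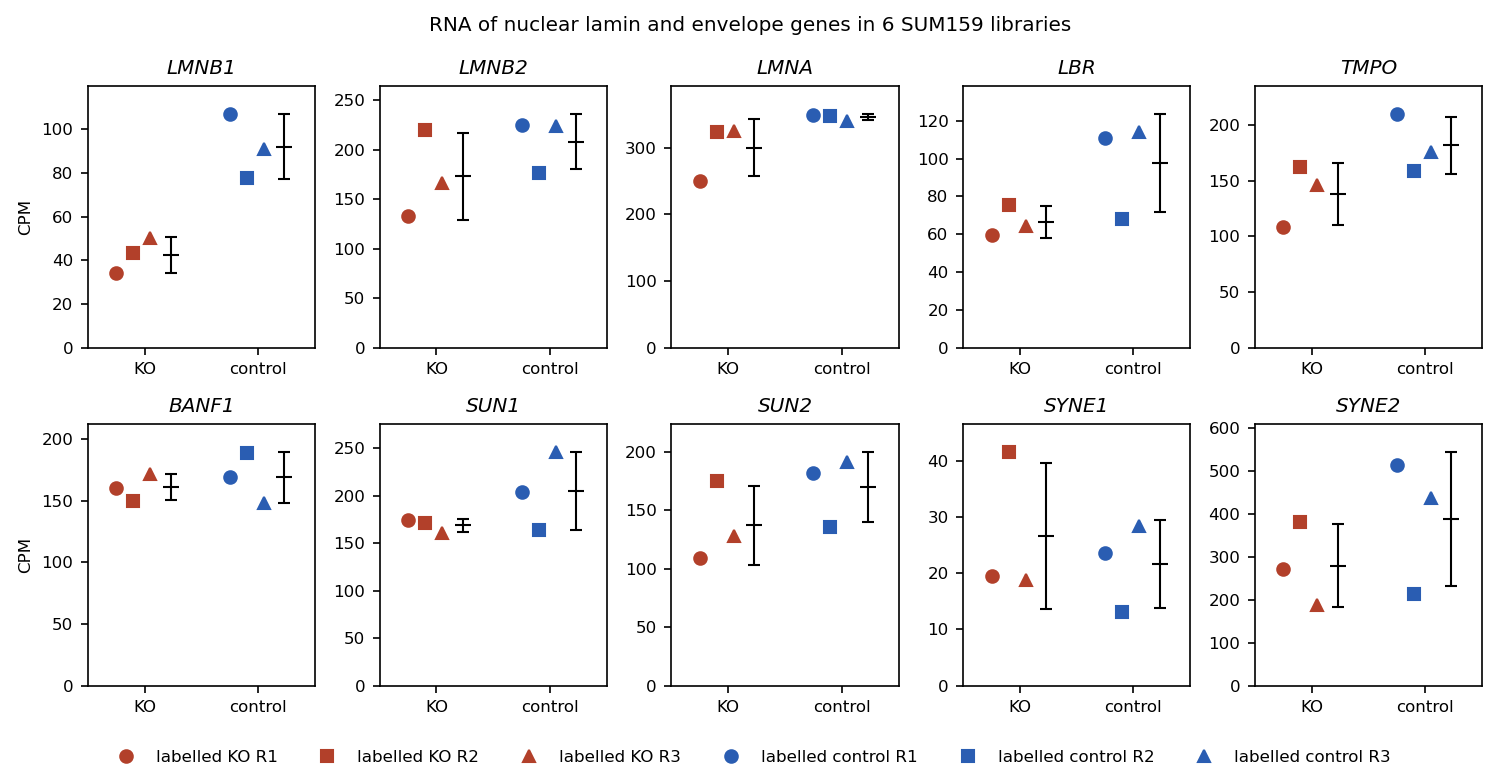
CPM of the 10 genes in each library, with KO on the left and control on the right of each panel, the symbol shape giving the library number, and a bar for mean ± SD (n = 3 each). LMNB1 has 34.0 to 50.3 CPM in the libraries labelled KO and 77.6 to 107 CPM in those labelled control. The R2 square of KO lies above that of control for LMNB2, LBR, TMPO, SUN1, SUN2, SYNE1 and SYNE2.

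The SUN genes, whose products span the inner nuclear membrane, overlapped between the labels. SUN1 (chromosome 7, 816615 to 896435) stood at 175, 171 and 161 CPM in the libraries labelled KO R1, R2 and R3, against 204, 164 and 246 CPM in those labelled control R1, R2 and R3, and control R2 lay among the KO libraries. SUN2 (chromosome 22, 38734725 to 38794143) stood at 109, 175 and 128 CPM in KO libraries R1 to R3, against 182, 136 and 191 CPM in control libraries R1 to R3. For SUN2 the library labelled KO R2 stood close to control R1, and control R2 close to KO R3. The log2 fold changes were −0.28 (SE 0.16) for SUN1 and −0.30 (SE 0.22) for SUN2. SUN1 shares its locus with GET4 on the same strand, and SUN2 with GTPBP1 on the opposite strand and DNAL4 on its own.

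SYNE1 and SYNE2, which encode the giant nesprins 1 and 2, split the libraries by DAPK3 RNA and overlapped between the labels. For LMNB2, LBR, TMPO and SUN2, the libraries KO R2, control R1 and control R3 were also the 3 highest, and the labels overlapped. The step from KO R2 down to control R2 was narrow for LBR (75.6 against 67.9 CPM) and TMPO (162 against 159 CPM). This grouping of libraries was also that of the first principal component, with 74.7% of the variance. The share of all genes that split in this way was not counted. SYNE2 (chromosome 14, 63852983 to 64226433) stood at 271, 380 and 187 CPM in the libraries labelled KO R1, R2 and R3, against 513, 213 and 436 CPM in those labelled control R1, R2 and R3. The 3 libraries with the most DAPK3 RNA, KO R2, control R1 and control R3, had the most SYNE2. SYNE1 (chromosome 6, 152121684 to 152637801) stood at 19.5, 41.5 and 18.7 CPM in KO libraries R1 to R3, against 23.6, 13.0 and 28.3 CPM in control libraries R1 to R3. KO R2 was the highest library for SYNE1 and control R2 the lowest, the same end libraries as for DAPK3. Within the libraries high in DAPK3 RNA, and within those low in it, SYNE1 was also higher under the KO label. Log2 fold changes between the labels were 0.29 (SE 0.41) for SYNE1 and −0.47 (SE 0.38) for SYNE2. The spread within each label was thus wider for these genes than for the lamins.

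**Figure D3:**
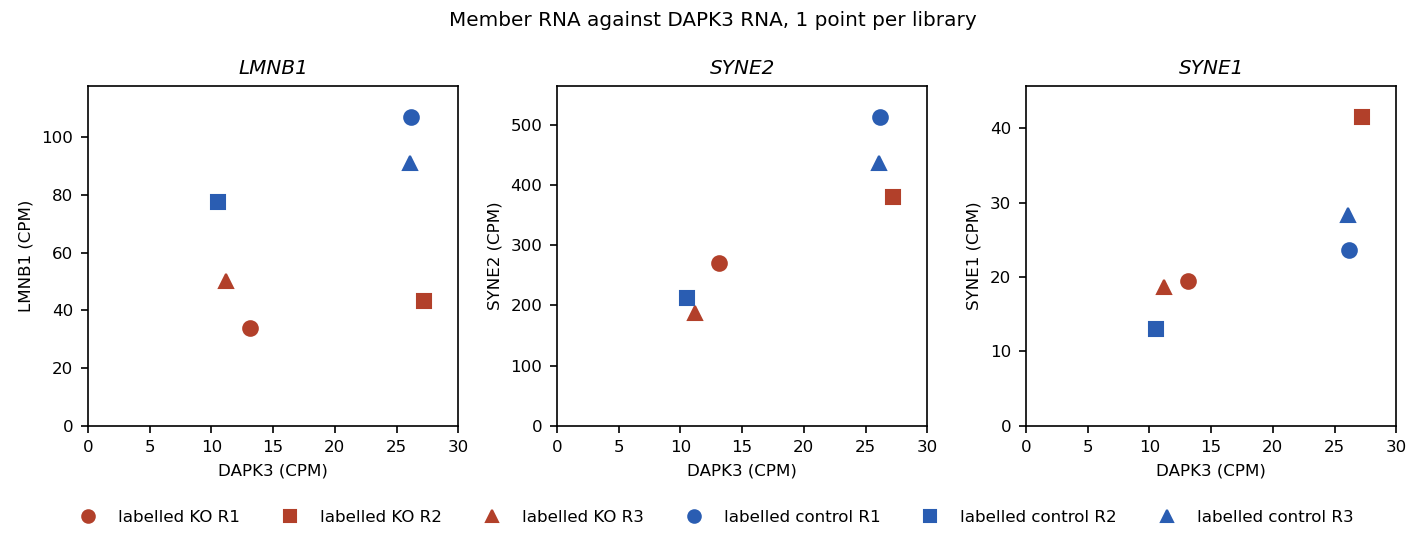
CPM of LMNB1, SYNE2 and SYNE1 on the vertical axes against DAPK3 CPM on the horizontal axes, 1 point per library, coloured by label. LMNB1 separates the colours at 10.5 to 13.1 CPM of DAPK3 and also at 26.1 to 27.2, whereas SYNE2 and SYNE1 are higher in the 3 libraries with more DAPK3.

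Levels of different genes were compared as CPM per kilobase of the summed exons in GENCODE release 29. That length can overstate the expressed transcript, as for the large nesprin genes, and by how much was not measured for any member. On this scale BANF1 was highest, at 97.9 ± 6.44 in KO and 103 ± 12.5 in control (SD, n = 3 each), followed by LMNA at 42.9 ± 6.14 in KO and 49.5 ± 0.661 in control, and LMNB2 at 31.8 ± 8.12 in KO and 38.3 ± 5.14 in control. LMNB1 ranked number 8 of the 10 in KO, at 11.7 ± 2.25, and number 5 in control, at 25.4 ± 4.13. In KO its neighbours in level were LBR at 12.6 ± 1.57 and SYNE2 at 8.89 ± 3.08, and in control SUN2 at 26.2 ± 4.58 and TMPO at 21.2 ± 2.99. The gap to LBR and SYNE2 in KO, and to SUN2 in control, was within the larger SD of each pair, while the gap to TMPO in control, 4.2, was just above the SD of 4.13. Of the neighbouring pairs in the order of levels, SUN2 and TMPO, and TMPO and SUN1, in KO, and TMPO and LBR, and LBR and SUN1, in control, also lay within their SD. SYNE1 was lowest in both, at 0.577 ± 0.28 in KO and 0.471 ± 0.17 in control.

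Across all 14613 genes, edgeR's quasi-likelihood test called 0 between the labels at an adjusted p under 0.05, a share of 0%, and 0 of the 10 members. At an unadjusted p under 0.05, edgeR counted 7.66% of all genes, 4.17% with KO lower, and LMNB1 and LBR were the 2 members so counted. The median log2 fold change was −0.29 over the 10 members, 9 of them below 0 (50% of all genes), and 0 over all genes. DESeq2 called 124 genes in the same libraries, 0.849% of those tested, with LMNB1 as the 1 member among them.

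Without the libraries labelled KO R2 and control R2, edgeR called 27.3% of 14846 genes, 15.2% with KO lower. Of the 10 members, 6 were called lower (LMNB1, LMNB2, LBR, TMPO, SUN2 and SYNE2) and 0 higher. At an unadjusted p under 0.05 edgeR counted 8 members, all lower, beside 40% of all genes and 21.3% lower, and 9 members had fold changes below 0, beside 51.7% of all genes. Among these 4 libraries, log2 fold changes were −1.25 (SE 0.20) for LMNB1, −1.07 (SE 0.18) for SYNE2, −0.88 (SE 0.12) for LBR, −0.67 (SE 0.13) for SUN2, −0.62 (SE 0.17) for TMPO and −0.60 (SE 0.14) for LMNB2. LMNA at −0.27 (SE 0.15), SUN1 at −0.44 (SE 0.14), SYNE1 at −0.46 (SE 0.16) and BANF1 at 0.05 (SE 0.12) were not called. The left-out pair was chosen for its DAPK3 level with results known, so label and DAPK3 level coincide here by construction. When each of the 4 libraries was also left out in turn, LMNB1, LBR, SUN2 and SYNE2 were called in 4 of 4 fits, and LMNB2 and TMPO in 2 of 4, being lost without KO R1 or without control R1. LMNA, without KO R3, and SUN1, without control R1, were each called in 1 of the 4. In these fits edgeR called 12.7% of all genes lower without KO R1, 14.2% without KO R3, 9.36% without control R1 and 11.9% without control R3.

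With log2 DAPK3 CPM as a covariate beside the label, in all 6 libraries, the label difference of LMNB1 was −1.06 (SE 0.17). That of SYNE2 was −0.20 (SE 0.13). LMNB1 was known beforehand to follow the label in these same libraries, so its value here is a description. The other lower values were −0.41 (SE 0.12) for LBR, −0.33 (SE 0.14) for TMPO, −0.20 (SE 0.12) for LMNA, −0.20 (SE 0.13) for SUN1, −0.20 (SE 0.11) for SUN2, −0.19 (SE 0.13) for LMNB2 and −0.12 (SE 0.09) for BANF1. SYNE1 stood at 0.50 (SE 0.13). In this fit edgeR called 0% of the 14613 genes and 0 members, with 16.8% of all genes at an unadjusted p under 0.05. The members so counted were LMNB1 and LBR with KO lower, beside 8.38% of all genes, and SYNE1 with KO higher, beside 1234 of the 14613 genes. Of the 10 fold changes, 9 were below 0, beside 49.3% of all genes.

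**Figure D4:**
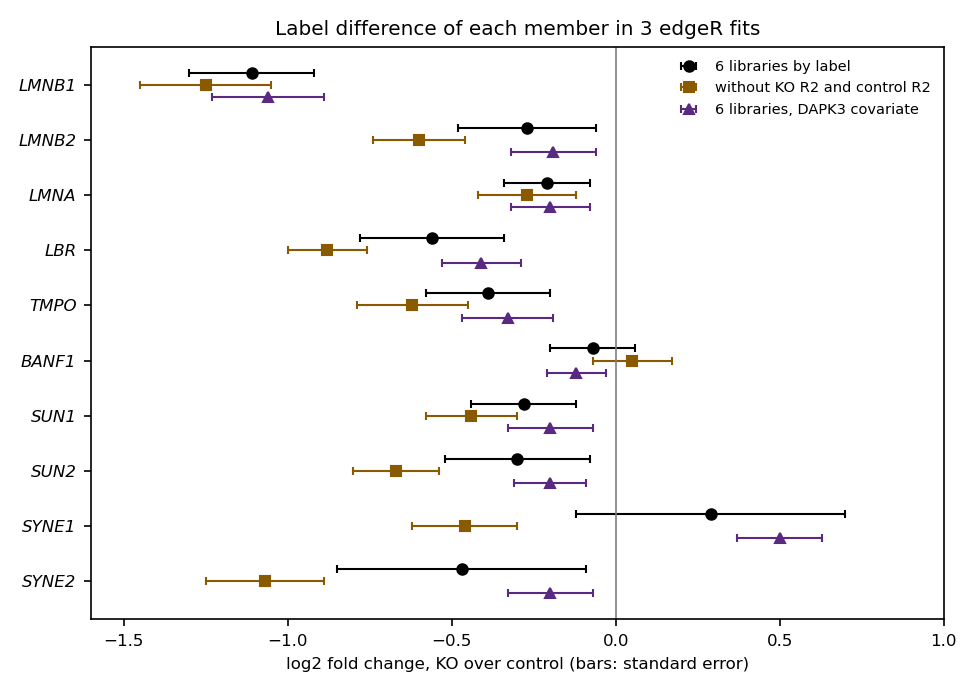
Log2 fold change of KO over control for each member, with standard errors, in the fit of all 6 libraries, the fit without KO R2 and control R2, and the fit with DAPK3 as a covariate. LMNB1 stays between −1.25 and −1.06 in the 3 fits, SYNE2 runs from −1.07 to −0.20, and SYNE1 from −0.46 to 0.50.

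By closeness of pattern, measured as the root mean square difference of centred log2 CPM over the 6 libraries among 12080 genes, the 5 genes nearest to LMNB1 were TMEM97, CDKN2C, APAF1, CLSPN and AKR1C3. TMEM97, a sterol-regulated membrane protein gene and the nearest at 0.104, stood at 21.8, 26.8 and 29.7 CPM in the libraries labelled KO R1, R2 and R3, against 62.2, 41.0 and 59.6 CPM in those labelled control R1, R2 and R3. CLSPN, encoding the replication checkpoint protein claspin, stood at 14.6, 17.3 and 17.5 CPM in KO, against 39.9, 24.8 and 37.3 CPM in control. CDKN2C, a CDK inhibitor gene, differed by 0.133, APAF1, of the apoptosome, by 0.143, and AKR1C3, which may share reads with similar AKR1C genes, by 0.153. Within the envelope set the nearest were LBR at 0.366 and TMPO at 0.374, and the farthest was SYNE1 at 0.834.

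The other envelope genes were described by fixed lists. Of 12 inner nuclear membrane genes tested, 0 were called between the labels by edgeR, 6 had fold changes below 0, and the median was −0.02. NEMP1, an inner membrane protein gene, stood at 56.5, 46.3 and 58.5 CPM in the libraries labelled KO, against 69.7, 69.5 and 71.9 CPM in those labelled control (log2 fold change −0.39, SE 0.12, edgeR adjusted p = 0.63). EMD, encoding emerin, a LEM-domain partner of BANF1 and lamins, stood the other way, at 110, 101 and 114 CPM in KO, against 76.2, 91.5 and 87.4 CPM in control (0.35, SE 0.12, edgeR adjusted p = 0.63). TMEM43 and ANKLE2, the most expressed of the list, differed by 0.03 (SE 0.14) and 0.02 (SE 0.10). Without both R2 libraries EMD and LEMD2, 2 of 12, were called higher and 0 lower, beside 12.2% of all genes higher and 15.2% lower.

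Among genes that process prelamins, ICMT, the methyltransferase that acts on farnesylated CaaX proteins including lamins, had the largest difference. It stood at 113, 140 and 119 CPM in the libraries labelled KO, against 232, 150 and 202 CPM in those labelled control (log2 fold change −0.65, SE 0.19, edgeR adjusted p = 0.63), and it was the 1 of 5 called lower without both R2 libraries (−0.92, SE 0.12, edgeR adjusted p = 0.0027), beside 15.2% of all genes. ZMPSTE24, the prelamin A protease gene, differed by −0.21 (SE 0.13), and FNTA, the shared subunit gene of farnesyl and geranylgeranyl transferase, by 0.08 (SE 0.12). Of the 7 other SUN and KASH genes 3 were tested: SYNE3 at −0.02 (SE 0.23), SPAG4 at −0.12 (SE 0.24) and SYNE4 at −0.27 (SE 0.61), which had at most 1.16 CPM in any library.

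Nuclear pore genes showed no common direction. Of 30 tested, 0 were called between the labels by edgeR, and the median log2 fold change was 0.01. NUP58, of the central channel, stood at 123, 124 and 120 CPM in KO, against 97.8, 103 and 99.2 CPM in control (0.29, SE 0.10, edgeR adjusted p = 0.63). NUP153, of the nuclear basket, stood at 245, 205 and 252 CPM in KO, against 155, 202 and 171 CPM in control (0.41, SE 0.14, edgeR adjusted p = 0.63). TPR and NUP98, the most expressed, stood at 0 (SE 0.11) and 0.06 (SE 0.10). Without both R2 libraries 9 of 30 were called lower and 3 higher, beside 15.2% and 12.2% of all genes. NUP210, the pore membrane protein gp210, was singled out after its values were seen. It stood at 0.319, 12.1 and 0.391 CPM in the libraries labelled KO R1, R2 and R3, against 16.5, 0.0956 and 15.5 CPM in those labelled control R1, R2 and R3, so it followed DAPK3 RNA and crossed the labels in both R2 libraries.

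Genes of envelope breakdown and resealing had 0 of 13 called between the labels and a median of 0.11. CHMP7, the ESCRT-III subunit that joins the reforming envelope, differed by −0.37 (SE 0.13) and LPIN2, a lipin phosphatase gene, by 0.20 (SE 0.11), with IST1 at 0.19 (SE 0.14) and VPS4A at 0.10 (SE 0.10). Without both R2 libraries 2 of 13 were called lower (VRK1 and CHMP7) and 2 higher, shares near the 15.2% and 12.2% of all genes.

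By edgeR 0 of 16 cell cycle genes were called between the labels, and 12 were lower at an unadjusted p under 0.05, beside 4.17% of all genes. The 16 genes of a short replication and mitosis list all had fold changes below 0 in KO, with a median of −0.65, and 10 of them (62.5%) had no overlap between the labels, beside 6.86% of all genes. DESeq2 called 6 of the 16 lower, beside 0.493% of all genes, and without both R2 libraries edgeR called 13 of 16 lower, beside 15.2% of all genes. PCNA, which encodes the sliding clamp of DNA polymerases, had 56.7, 51.4 and 61.6 CPM in the KO libraries, against 126, 90.4 and 130 CPM in the control libraries (log2 fold change −1.03, SE 0.17). MCM2, of the replicative helicase, stood at 118, 101 and 132 CPM in the KO libraries, against 190, 177 and 177 CPM in the control libraries (−0.64, SE 0.13). Both had an edgeR adjusted p of 0.63 and groups that did not overlap. The 2 most expressed genes of the list did overlap, through the R2 libraries. TOP2A, encoding topoisomerase II alpha, had 306, 466 and 358 CPM in the KO libraries, against 735, 423 and 622 CPM in the control libraries (−0.66, SE 0.25). MKI67, encoding the Ki-67 antigen, had 257, 319 and 250 CPM in the KO libraries, against 477, 294 and 419 CPM in the control libraries (−0.53, SE 0.20). The list's centred median was −0.59, −0.17 and −0.28 in the libraries labelled KO R1, R2 and R3, against 0.59, 0.01 and 0.42 in control libraries R1 to R3. That of the 10 envelope members was −0.39, 0.03 and −0.21 in KO, against 0.27, −0.12 and 0.34 in control. The part of proliferation in the LMNB1 difference was not tested.

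The 12 senescence-associated genes gave no common direction, with 10 tested, 0 called by edgeR between the labels, 5 below 0 and a median of 0.24. GDF15, a stress-induced secreted factor gene, stood at 24.8, 31.5 and 18.0 CPM in KO, against 12.8, 15.5 and 7.95 CPM in control (1.03, SE 0.31, edgeR adjusted p = 0.63). CDKN2A and CDKN2B did not pass the filter on low counts. HMGB1, a chromatin protein gene, differed by −0.12 (SE 0.10), and GLB1, the gene of the lysosomal galactosidase used as a senescence stain, by −0.26 (SE 0.12). In the fit without both R2 libraries, edgeR called 3 of the 10 tested genes higher and 2 lower, beside 12.2% and 15.2% of all genes.

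**Figure D5:**
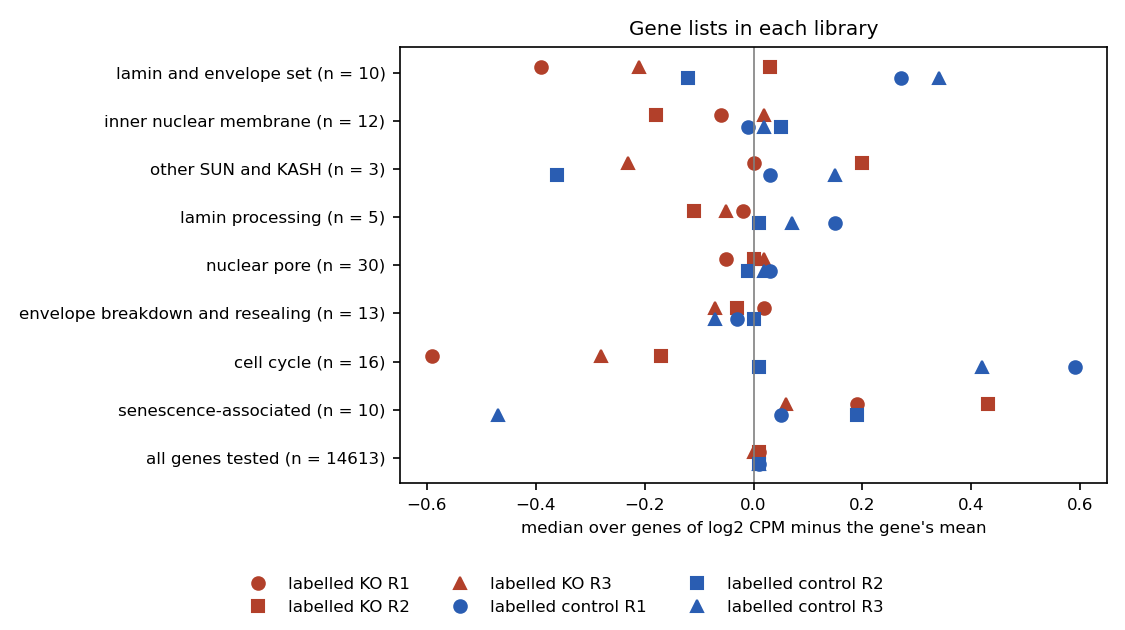
Median over the genes of each list of log2 CPM minus the gene's own mean, 1 point per library, with KO libraries drawn above control libraries in each row and all tested genes in the bottom row. The cell cycle list lies at −0.59 to −0.17 in the libraries labelled KO and at 0.01 to 0.59 in those labelled control, while nuclear pore and resealing genes stay near 0.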

How the data were processed

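The authors deposited a table of expected counts, which are unnormalized read estimates and can be fractional, with 1 column per library. Bowtie2, RSEM, edgeR and the GRCh38 build are named, per the submitters' processing notes. Tool versions and roles, annotation and strandedness were not given in the sources used here, so reads of overlapping genes may be divided or shared. Expected counts were rounded. The main comparison was edgeR 4.0.16's quasi-likelihood test (R 4.3.3) of KO against control, with TMM factors, the filterByExpr filter, no block and Benjamini-Hochberg adjustment over all tested genes. CPM is the rounded count scaled to the library total times its TMM factor (0.991 to 1.015), and centred values use a prior count of 2. limma 3.58.1 and DESeq2 1.42.0 served as alternatives. No 2 libraries agreed within sampling noise (chi-square per degree of freedom 12.7 to 119). Fits were tested on simulated data. Members, lists, motifs and alternatives were chosen with earlier results of these data known. Named genes were the members, DAPK3, the 2 smallest p and 2 most expressed per list, and the 5 nearest to LMNB1 whose mean log2 CPM was 1 or more. LEMD2, VRK1 and NUP210 were added after values were seen, and some genes of the lists are not reported here. Gene coordinates and exon lengths are from GENCODE release 29 on GRCh38, matched by identifier, and promoters from RefSeq.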

Additional observations from a re-analysis of the deposited data

How the results depend on the processing

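Between the labels edgeR called 0 genes, and also 0 with RLE, upper-quartile or library-size scaling, no filter, a CPM minimum of 1, the DAPK3 covariate, limma-voom and each single library left out, with 1119 genes at an unadjusted p under 0.05 in the main comparison. DESeq2 called 124 and the comparison without control R2 and KO R2 together 4055, and 2543 to 3700 when each remaining library was also left out, a setting chosen after seeing the data which takes a lone library to vary as the others do. With the replicate number as a block edgeR called 0 genes, with 261 at an unadjusted p under 0.05. Libraries of the same number had deviations from their group means that correlated at −0.655, −0.853 and −0.70. Both R2 libraries lie on opposite sides of the first principal component, so these correlations do not tell whether the numbers mark a pairing, and no label says that they do. Over 16 settings for 10 members, 149 values kept their direction and side of the threshold, 7 passed it and 4 changed sign. LMNB1 ran from −1.27 to −0.99 over these settings and from −1.57 to −0.98 over all 20 settings.

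Some signs changed. Without control R2 and KO R2 together BANF1 was 0.05, SYNE1 −0.46, TMEM43 −0.12, ANKLE2 −0.06 and FNTA −0.07. With the DAPK3 covariate SYNE3 was 0.11 and TPR 0.03. With upper-quartile scaling TMEM43 was −0.01 and ANKLE2 −0.02, with the CPM minimum ANKLE2 was 0, and with library-size scaling, no filter, the replicate block and limma-voom TPR was 0. With libraries left out, BANF1 ran from −0.17 to 0.15, SYNE1 from −0.58 to 0.52, TMEM43 from −0.30 to 0.14, ANKLE2 from −0.10 to 0.05, SYNE4 from −1.63 to 0.31, SYNE3 from −0.43 to 0.11, FNTA from −0.10 to 0.12 and TPR from −0.15 to 0.05. The causes were not tested. With 3 libraries a group and DAPK3 RNA against 2 labels, small differences were not detectable. In the main comparison edgeR did not call a difference as large as that of LMNB1, −1.11, either.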
